A study of Mus musculus with 9 samples.

Results

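Extrachromosomal circular DNA (eccDNA) consists of closed circles that carry chromosomal sequence and lie apart from the chromosomes. Adult-only reproducible circles of the mouse heart are circles with 1 or more split reads in at least 2 of the 3 libraries of 8-week (8w) hearts and with 0 split reads in all 6 libraries of earlier stages. A split read spans the junction where a circle closes. Of 149584 distinct circles in the series, 24518 were in an adult library and 487 (1.99%) met this rule. Reproducible means no more than that: many members had a single split read in a library, and the sources used here do not say whether such reads were called in that library or counted at a circle called in another. Members were thus chosen by their split reads, so the number, the reads and the sharing of these circles are a description. The rule does not use length, gene or chromosome, but it does not leave length free. Adult circles also found at E18 or 3d, which it leaves out, had medians of 371, 152 and 178.5 bp in 8w replicates 1 to 3. The members had 108, 112 and 100 bp. The circles set beside them are the 16002 adult circles seen in 1 library of all 9.

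The hearts came from wild-type C57BL/6J mice of 3 ages, embryos of day 18 (E18), neonates of day 3 (3d) and adults of 8 weeks, with 3 libraries per age numbered as biological replicates. Digested hearts were put through alkaline and column purification, and the circles were amplified with phi29 polymerase and sequenced (Circle-seq). The labels give heart as tissue and cardiocytes as cell type, with no sex and nothing on pooled hearts or preparation batches, and circle DNA holds no marker that would check the cell type. Split reads numbered 11377, 194280 and 67182 in 8w replicates 1 to 3, and the E18 and 3d libraries were 5.60 to 74.4 times as deep in split reads as 8w replicate 1. Amplified reads are not independent molecules, so the Wilson 95% intervals below cover counting error only.

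Small eccDNA is known from many healthy tissues. Its lengths often follow the wrapping of DNA around nucleosomes, and its circles come from most of the genome, inside and outside genes. Circles as small as most of these are too short to hold most genes with their promoters. Coordinates are those of GRCm38/mm10, counted from 1. No genome sequence was used here, so the bases of the circles are not shown.

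The adult-only reproducible circles were short, outside genes more often than inside, and mostly carried by few reads in at least 1 library. Their lengths ran from 54 to 740 bp with a median of 107 bp and quartiles of 90 and 150 bp, and 469 of 487 (96.3%) were under 250 bp. The most populated length class was 80 to 99 bp, with 160 circles (32.9%), followed by 100 to 119 bp with 89 circles and 120 to 139 bp with 54. From 250 to 450 bp there were 15 circles, and 3 were longer. Of the 16002 single-library adult circles, 94.6% were under 250 bp, and their median was 120 bp.

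By the rule each member counts in at least 2 of the 3 adult libraries, so large library counts are partly set by it. Of the 487 circles, 341 were in 8w replicate 1, 362 in replicate 2 and 276 in replicate 3. They made up 8.67% of all circles and 4.70% of the split reads of replicate 1, 2.46% and 2.54% in replicate 2, and 4.15% and 3.85% in replicate 3. Replicates 1 and 2 alone shared 211 of them, replicates 2 and 3 alone 146, and replicates 1 and 3 alone 125. The remaining 5 were in all 3 adult libraries. Without replicate 1, 2 or 3, the numbers in both remaining libraries and in no earlier stage were 151, 130 and 216.

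The reads of a circle were unequal between the libraries that held it. In 8w replicate 1, 251 of 341 reproducible circles (73.6%, Wilson 95% interval 68.7 to 78.0%) had a single split read, against 7.65% (6.14 to 9.48%) of the circles found in that library only. In replicate 2 the shares were 9.39% (6.80 to 12.8%) and 1.76% (1.53 to 2.03%), and in replicate 3 they were 22.8% (18.3 to 28.1%) and 1.77% (1.41 to 2.22%). Single reads were not particular to the reproducible circles. Of the adult circles also found at E18 or 3d, 78.6%, 22.7% and 38.7% had a single read in replicates 1 to 3. The median reproducible circle had 1 split read in replicate 1, 11 in replicate 2 and 7 in replicate 3. Of the 211 circles of replicates 1 and 2 alone, 157 had their single read in replicate 1 and 7 in replicate 2. For replicates 1 and 3 alone, 91 of 125 had a single read in replicate 1 and 6 in replicate 3. For replicates 2 and 3 alone, 25 of 146 had a single read in replicate 2 and 55 in replicate 3. In each of these pairs the single reads lay more often in the shallower library. Scaled to RPM (reads relative to the total split reads of a library, times 1e6), a single read was 87.9 RPM in replicate 1, 5.15 RPM in replicate 2 and 14.9 RPM in replicate 3. A count of 0 allows up to 3 reads, which on the same scale was 3.54 to 47.1 in the E18 and 4.51 to 9.67 in the 3d libraries.

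**Figure D1:**
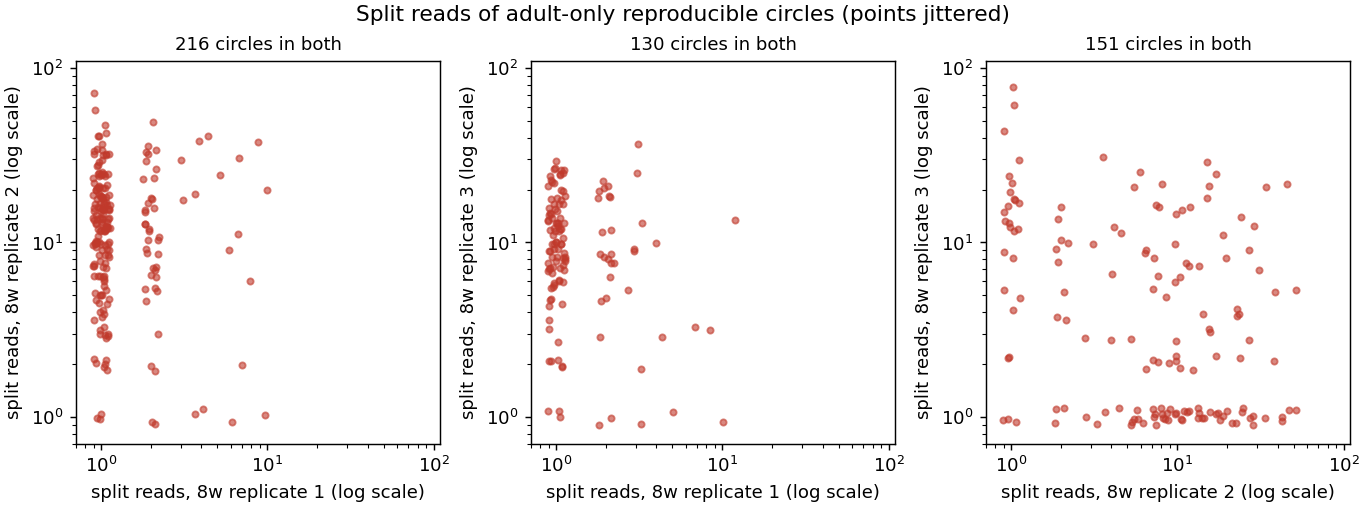
Split reads of the adult-only reproducible circles in each pair of adult libraries, on log scales with points jittered, 1 point per circle. In the panels with 8w replicate 1 most points stand at 1 read of that library. The points of replicates 2 and 3 spread more over both axes, but 78 of the 146 circles of these alone had 1 read in a library.

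Requiring more reads left few circles. With 2 or more reads in every adult library that held the circle, 147 of 487 (30.2%) were left, with 5 or more 41 (8.42%), and with 10 or more 11 (2.26%). Of the 41, replicates 2 and 3 alone held 33. The median length was 101 bp for the 147 circles, 92 bp for the 41 and 91 bp for the 11, and 47, 9 and 3 of them lay in a protein-coding gene. At the edge of the rule, 6 members had 1 read in each adult library that held them (median 105.5 bp). Just outside it, 105 circles were in at least 2 adult libraries and had a single read among all E18 and 3d libraries (median 114 bp). That read was in 3d replicate 1 for 70 of the 105, and in each other library for 4 to 11.

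Of the 5 circles of all 3 adult libraries, 4 lay in protein-coding genes, too few to set against the 38.8% of all members. A circle of 108 bp inside Alk, which encodes a receptor tyrosine kinase (chromosome 17, 71933526 to 71933633), had 4, 17 and 10 split reads in 8w replicates 1 to 3. It was the one with more than 2 reads in every adult library. A circle of 83 bp in Arhgef10l, a guanine nucleotide exchange factor gene (chromosome 4, 140544581 to 140544663), had 1, 14 and 22 reads. This circle was well covered in 2 libraries and rested on a single read in the other. A circle of 173 bp in Pnpla3, a lipase of lipid droplets (chromosome 15, 84183295 to 84183467), had 1 read in each library. A circle of 107 bp outside protein-coding genes (chromosome 2, 56890141 to 56890247) had 2, 6 and 1 reads and lay 216583 bp from the nearest RefSeq protein-coding gene, Nr4a2.

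The 5 circles with the most reads summed over the adult libraries were, with 1 exception, carried by a single library. A circle of 79 bp in Camk1d, a calcium- and calmodulin-dependent kinase (chromosome 2, 5457280 to 5457358), had 0, 1 and 80 reads in 8w replicates 1 to 3. A circle of 77 bp on chromosome X (153580639 to 153580715), outside protein-coding genes and in a long non-coding RNA gene of RefSeq, had 1, 69 and 0 reads. A circle of 82 bp in Paqr8, a membrane progestin receptor gene (chromosome 1, 20903301 to 20903382), had 0, 1 and 62 reads. In these circles all but 1 read came from 1 heart library. The same held for a circle of 315 bp on chromosome 8 (45155316 to 45155630), with 1, 62 and 0 reads. The exception was a circle of 91 bp on chromosome 16 (97271210 to 97271300), outside RefSeq genes, with 0, 43 and 23 reads, the only member with 20 or more reads in each of 2 libraries.

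The 11 circles with 10 or more reads in 2 libraries, singled out after their values were seen, were in replicates 2 and 3 alone in 10 cases. Inside genes of the table lay a circle of 96 bp in Scn10a, a voltage-gated sodium channel gene known from sensory neurons (chromosome 9, 119660111 to 119660206), with 17 reads in replicate 2 and 25 in replicate 3. A circle of 97 bp in Ccdc101, named Sgf29 in RefSeq and encoding a subunit of the SAGA complex (chromosome 7, 126665773 to 126665869), had 11 and 17 reads. A circle of 88 bp in Cyp3a57, a cytochrome P450 gene (chromosome 5, 145375264 to 145375351), had 10 and 17. All 3 had fewer reads in replicate 2, the deeper of both libraries. Outside table genes the reads went both ways. Replicate 2 had more for circles with 43 and 23, 32 and 19, 29 and 12, and 24 and 14 reads in replicates 2 and 3. Replicate 3 had more for circles with 15 and 26, 14 and 18, and 11 and 16. The exception among the 11, a circle of 87 bp on chromosome 5 (16928066 to 16928152), had 11 reads in replicate 1 and 12 in replicate 3. It held the highest count of any member in replicate 1.

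The members with the extreme lengths differed in their reads, with up to 50 reads in a library among the shortest and up to 13 among the longest. The 5 shortest had 54, 55, 55, 56 and 56 bp. Among them a circle of 56 bp outside genes on chromosome 10 (69502017 to 69502072) had 0, 50 and 6 reads, and 1 of 56 bp in Ints10, which encodes a subunit of the Integrator complex, had 0, 36 and 2. A circle in Cntnap5b, a gene of a neuronal cell-adhesion protein, had the same length and 1, 26 and 0 reads. The longest member, of 740 bp on chromosome 11 (13804515 to 13805254), had 3, 0 and 9 reads. The next had 479 bp in Agbl4, a cytosolic carboxypeptidase gene (1, 0 and 2 reads), 458 bp on chromosome 17 (1, 0 and 9 reads), 391 bp on chromosome 12 (1, 0 and 13 reads) and 363 bp on chromosome 1 (1, 10 and 0 reads). These 5 had a single read in 1 library, apart from the longest.

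Whether recurrence goes with length was compared within each adult library, since the libraries differ in length and depth. In 8w replicate 1 the median was 108 bp for reproducible circles and 123 bp for circles of that library only. In replicate 2 the medians were 112 and 131 bp, and in replicate 3 they were 100 and 99 bp. The reproducible circles were shorter in 2 libraries and 1 bp longer in the other, a mean difference of -11.0 ± 10.6 bp (SD, n = 3, exact two-sided sign-flip permutation p = 0.5). With 3 libraries the smallest p is 0.25, so no difference could be called, and members are shared by the libraries, so these differences are not independent. The mean difference was 0 bp without 8w replicate 3, -21.7 bp without E18 replicate 1, -17.8 bp without 3d replicate 1, -22.2 bp without 3d replicate 3 and -50.9 bp after thinning to the shallowest library. Thinning, or leaving out an E18 or 3d library, also changed which circles the rule left out. Set against all adult circles of 1 adult library, whatever their reads at E18 and 3d, the mean difference was -89.7 bp (exact permutation p = 0.25). That comparator takes in circles with E18 or 3d reads, which members cannot have, so it does not compare recurrence alone.

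Circles of 80 to 99 bp, a class set after the lengths had been seen, made up more of the reproducible circles in replicates 1 and 2. The share was 30.8% (Wilson 95% interval 26.1 to 35.9%) against 19.4% (17.0 to 22.0%) of single-library circles in replicate 1. It was 29.0% (24.6 to 33.9%) against 16.0% (15.3 to 16.7%) in replicate 2, and 40.6% (35.0 to 46.5%) against 43.5% (42.01 to 45.02%) in replicate 3. In replicate 2, circles shared with replicate 3 alone had this length in 37.7% (30.2 to 45.8%) and those shared with replicate 1 alone in 22.7% (17.6 to 28.9%). The share was thus highest in circles that replicate 3 also held, and replicate 3 was the library richest in this class.

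**Figure D2:**
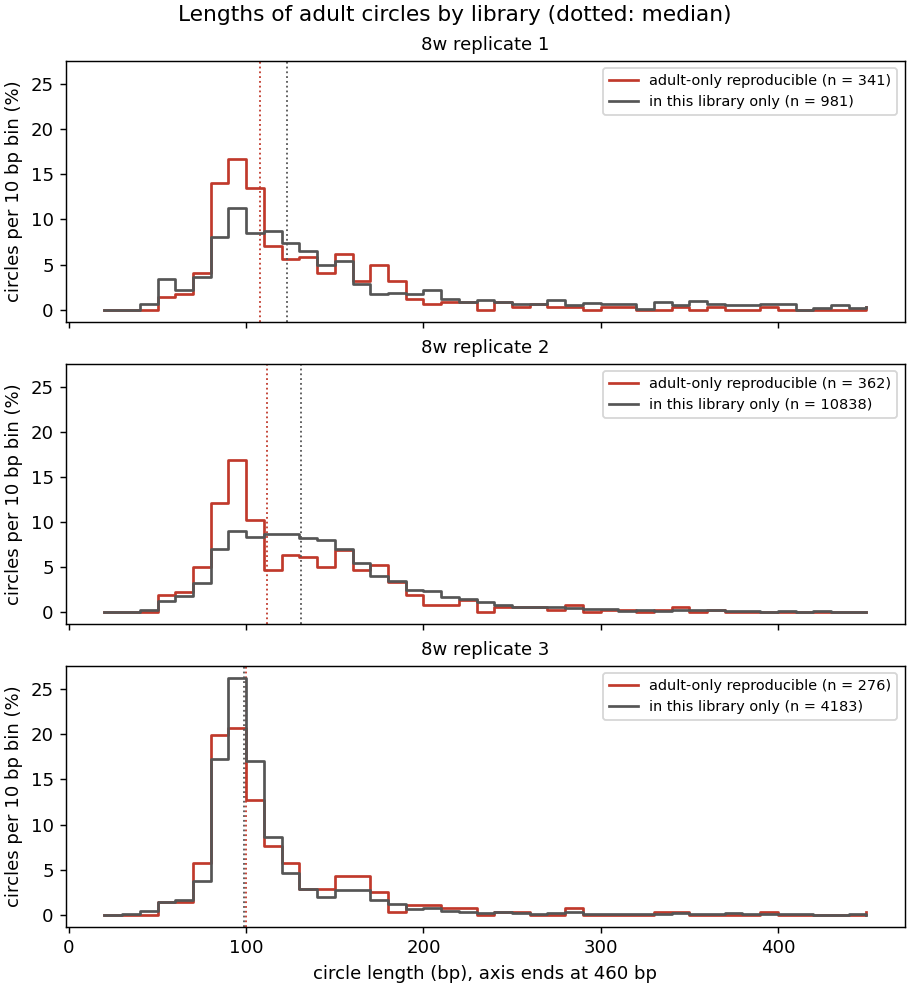
Length of adult circles in each 8w library, as the percent of circles in bins of 10 bp, for adult-only reproducible circles (red) and circles of that library only (grey), with medians dotted. Red stands above grey between 80 and 110 bp in replicates 1 and 2, and the medians of replicate 3 nearly coincide (100 and 99 bp).

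The reproducible circles of the earlier stages were longer. Under the same rule, E18 gave 1022 E18-only circles (1.92% of 53262) with a median of 372.5 bp, and 3d gave 8772 3d-only circles (9.61% of 91322) with a median of 388 bp. Circles under 250 bp made up 20.3% of the E18-only and 14.0% of the 3d-only circles. To test this, the rule was applied anew to each of the 84 ways to choose 3 of the 9 libraries. The adult median of 107 bp was the lowest and the adult share under 250 bp, 96.3%, the highest of all 84, whose medians centred on 363.5 bp and 29.8% (exact two-sided permutation p = 0.0238, the smallest possible, adjusted over 3 values by Benjamini-Hochberg 0.0357, for both). All circles of a library had medians of 331, 135 and 103 bp in 8w replicates 1 to 3 and of 366 to 405 bp in the E18 and 3d libraries. In replicates 2 and 3 the difference was thus not particular to reproducible circles. In replicate 1, 46.0% of all circles were under 250 bp, against 96.2% of its reproducible circles and 85.2% of the circles of that library only. The adult median was 92 bp with 5 or more reads required for presence (exact permutation p = 0.0714, adjusted 0.107). With any 1 E18 or 3d library left out, both values had an exact permutation p of 0.0357, the smallest for 56 groups. Their adjusted p was 0.0536, so neither passed, and at 56 groups they could pass only if the gene share passed too. With an adult library left out, the smallest p is 0.0714 and neither could pass.

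The order of the stages by number of circles changed with depth. After random thinning of all libraries to the 11377 split reads of 8w replicate 1, a mean over 20 draws of 329 adult-only, 87.9 E18-only and 174.3 3d-only reproducible circles was left. The adult number was then the highest of the 3, while at full depth it was the lowest. As shares of the circles of each stage at full depth, these were 1.99% at 8w, 1.92% at E18 and 9.61% at 3d. Shares after thinning were not computed. Thinning also took reads from the E18 and 3d libraries, so circles with reads there could newly meet the adult rule.

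Circles that an adult library shared with only 1 library of another stage differed in length from those it shared with another adult library. Over the 3 adult pairs the median of circles in exactly those 2 libraries lay between 99 and 125 bp, and 95.7 to 96.8% were under 250 bp. Over the 18 pairs of an adult with an E18 or 3d library it lay between 102 and 400.5 bp, and 11.4 to 85.8% were under 250 bp. In 8w replicate 1 all 6 medians with earlier libraries stood between 362 and 400.5 bp, against 125 and 99 bp with adult replicates 2 and 3. For replicate 2 they stood between 135.5 and 208 bp, and for replicate 3 between 102 and 365 bp. Ranges of adult and earlier pairs overlapped through a single pair, 8w replicate 3 with 3d replicate 1. These pairs share libraries, and no test was made between them.

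Sharing with other adult libraries was not more frequent than with every earlier library. Replicate 2 shared 1483 circles with 3d replicate 1 alone, 10.1% of its own circles and 4.61% of that library's. With adult replicate 3 alone it shared 146, 0.992% and 2.20%. Of the 1483, 986 had a single read in 3d replicate 1, which gave a median of 11 reads in the adult library and 1 in the neonatal. Replicate 3 shared 638 circles with 3d replicate 1 alone, 393 of them with a single read there. The part of such single reads in the count of adult-only circles was not tested.

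**Figure D3:**
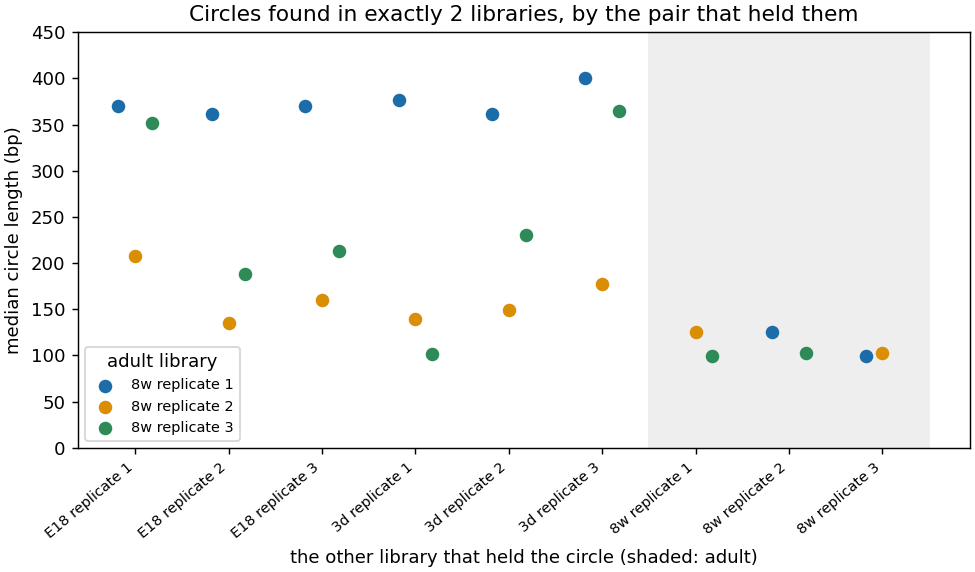
Median length in bp of circles found in exactly 2 libraries, by the adult library (colour) and the other library that held them (horizontal axis). The 3 adult pairs, each drawn at both of its libraries in the shaded part, lie at 125 bp or below, and 8w replicate 1 with any earlier library lies at 362 bp or above.

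Few members had another circle with both ends close to theirs, but the share of all circles with such a neighbour was not computed. Over all 149584 circles, merging ends within 5 bp took away 257 circles and within 20 bp 353, which is another measure. No member had another circle with both ends within 5 bp, and 4, 8 and 18 had 1 within 10, 20 and 50 bp, none of them found at E18 or 3d. Another circle of up to 100 kb overlapped 37 members, and for 4 of these it was from an earlier stage. For overlaps, too, the share over all circles was not computed. The circle in Sox6, a transcription factor gene (82 bp, chromosome 7, 115634162 to 115634243), lay within a circle of 350 bp of an earlier stage. Thus no member had a slightly shifted copy at E18 or 3d within these distances.

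Some members lay side by side or nested. Neighbouring members less than 1 kb apart formed 5 pairs. In Lgr5, which encodes a receptor for R-spondins, a circle of 90 bp (chromosome 10, 115566212 to 115566301) with 0, 41 and 1 reads lay inside a circle of 162 bp (115566166 to 115566327) with 0, 1 and 1. In Phc2, a Polycomb group gene, circles of 172 bp (chromosome 4, 128672958 to 128673129) and 92 bp (128672959 to 128673050) both had 2, 0 and 7 reads. The starts of the Phc2 circles are 1 bp apart and the reads equal in every library. On chromosome 4 a circle of 54 bp (131748182 to 131748235), the shortest member, had 0, 21 and 8 reads and lay in a circle of 71 bp (131748179 to 131748249) with 0, 7 and 8. Whether reads of nested circles were told apart was not tested.

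Most reproducible circles lay outside protein-coding genes, as adult single-library circles did. Of the 487, 189 (38.8%, Wilson 95% interval 34.6 to 43.2%) overlapped a protein-coding gene of the deposited table, against 38.2% (37.5 to 39.0%) of the single-library adult circles. Within 8w replicates 1 to 3 the difference was 1.27, -0.89 and 2.98 percentage points, a mean of 1.12 ± 1.94 (SD, n = 3, exact two-sided sign-flip permutation p = 0.5). The share was 41.3% for E18-only and 45.1% for 3d-only reproducible circles. Of the 84 choices of 3 libraries, 6 gave a lower share than the adult one (exact two-sided permutation p = 0.167). With 2 or more reads required for presence the adult share was 32.2% (exact permutation p = 0.0476, adjusted 0.0476), which passed, and with 5 or more it was 25.6% (exact permutation p = 0.119), which did not.

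Against RefSeq, 198 of the 487 circles overlapped a protein-coding gene, 43 others a long non-coding RNA gene, 8 others a pseudogene, and 238 none of these. Members outside RefSeq protein-coding genes lay at a median of 63204 bp from the nearest, and 117 were over 100 kb away. All 199 pairs of circle and table gene had the whole circle inside the gene, so no member crossed the edge of a gene. The median position was 0.46 of the way from the start to the end of the gene, and 21 of 199 lay in the first 10% of it. None of the 487 overlapped the promoter window of a RefSeq gene, 250 bp before to 50 bp after its start, which allows a share of up to 0.616%. Of single-library adult circles 0.294% did, which is under that limit, so a difference was not detectable at this number.

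The genes with members were long genes, in proportion to their length. Members overlapped 193 of 14085 genes of the table that held any circle (1.37%). Their median gene length was 143 kb, against 30.01 kb for all genes with a circle and 83.9 kb for genes with a single-library adult circle. Members per Mb of gene numbered 0.221 in genes under 50 kb, 0.205 from 50 to 200 kb, 0.175 from 200 to 500 kb and 0.221 above. Single-library adult circles numbered 6.88, 6.29, 6.64 and 6.75 per Mb in the same classes. Reproducible circles were 2.57 to 3.17% of both kinds together in these classes, with overlapping Wilson intervals.

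The gene lists showed the same dependence. Of 48 long neuronal and fragile-site genes with a circle, 11 held a member, and these genes have a median of 1102 kb. Per Mb they held 0.201 members, as did all genes with a circle (0.201), and 6.92 single-library adult circles against 6.50. Among the 11 were Agbl4, Asic2, Cntn5, Cntnap2, Cntnap5b, Ctnna3, Dmd, Lrp1b, Pcdh15 and Tenm2. Dmd, the dystrophin gene, held a circle of 82 bp (chromosome X, 84204806 to 84204887) with 1, 17 and 0 reads. Ctnna3, which encodes a catenin of the intercalated disc, held 1 of 108 bp with 1, 5 and 0 reads. Lrp1b, a lipoprotein receptor gene, held 1 of 97 bp with 0, 1 and 22 reads. The circle of Tenm2, a teneurin, had 1, 0 and 27 reads.

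Most gene lists held few members, as did all genes with a circle (1.37% with a member). Of 31 sarcomere genes with a circle 0 held a member, and likewise 0 of 28 fatty acid oxidation, 25 cell cycle, 35 DNA repair, 24 endothelial and 17 blood and immune genes. These lists have median gene lengths of 18.5 to 55.7 kb, below the 143 kb of genes with a member, and held few single-library adult circles, 14 in sarcomere and 10 in fatty acid oxidation genes. At these numbers a difference from the 3.00% of members among both kinds of circle in all genes was not detectable. Calcium handling and ion channel genes held 1 member among 42 genes, a circle of 85 bp in Cacna1c, the pore subunit of the L-type calcium channel (chromosome 6, 118625727 to 118625811), with 9, 1 and 0 reads. Among 32 cardiac transcription factor genes, Prdm16 held a circle of 140 bp (chromosome 4, 154527682 to 154527821) with 0, 9 and 1 reads. Both circles rested on a single read in 1 of their libraries.

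Among 34 fibroblast and matrix genes, Lama2 and Gpc6 held members, against 1.37% of all genes with a circle and with 0.594 members per Mb against 0.201. Lama2, a laminin chain of muscle basement membrane, held 2, of 70 bp (chromosome 10, 27075064 to 27075133) with 0, 42 and 1 reads and of 96 bp (27564595 to 27564690) with 1, 5 and 0 reads. Gpc6, a glypican, held 1 of 144 bp with 1, 0 and 13 reads. Among 34 glutamate and GABA receptor genes, with a median length of 224 kb, Gria4, Grin1 and Grm4 held members, 0.315 per Mb. For both lists the Wilson interval of members among both kinds of circle included the 3.00% of all genes. In Grin1, an NMDA receptor subunit gene of 28.0 kb, the circle of 108 bp had 2, 0 and 17 reads, and it was 1 of 2 circles of any stage in that gene.

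Apart from Lama2, Lgr5 and Phc2, 3 genes held 2 members, and none held more. In Camk1d the second circle, of 83 bp (chromosome 2, 5694458 to 5694540), had 1, 0 and 4 reads. In Anks1b, a gene of a postsynaptic scaffold protein, circles of 103 and 101 bp had 2, 0 and 19 and 3, 0 and 14 reads. Both Anks1b circles thus had more than 1 read in each of 8w replicates 1 and 3. In Thsd7b, a thrombospondin-domain gene, circles of 144 and 61 bp had 0, 13 and 1 and 1, 6 and 0 reads. Thsd7b held 5, 13 and 5 circles in the adult libraries, 19, 4 and 4 in the E18 and 10, 5 and 12 in the 3d libraries.

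**Figure D4:**
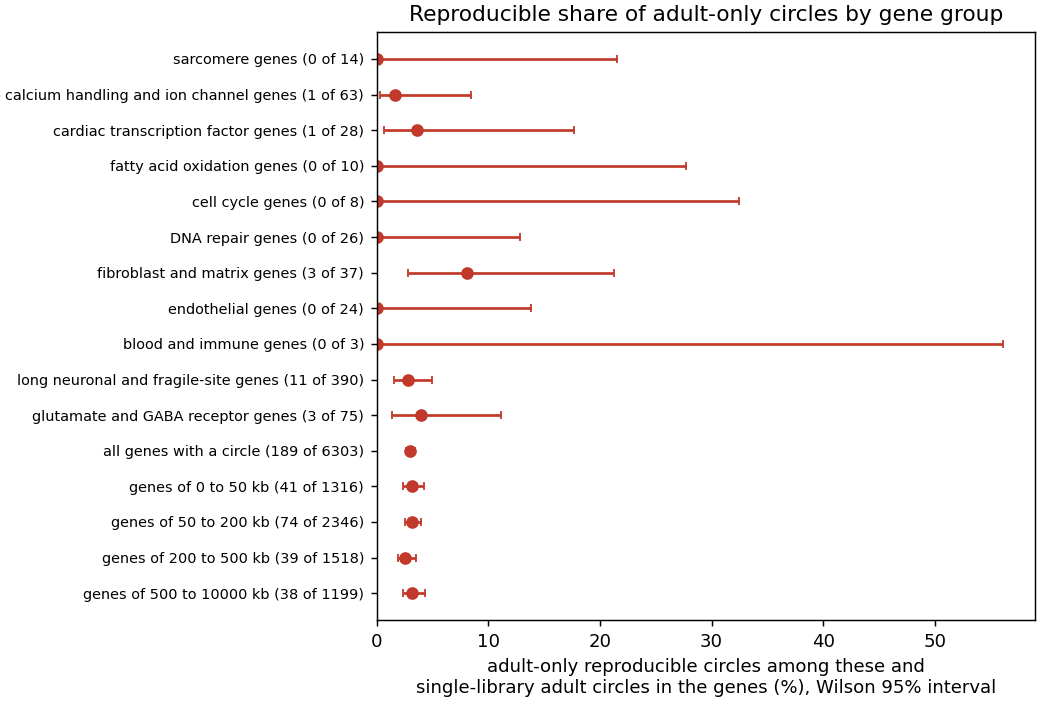
Adult-only reproducible circles as a percent of these and the single-library adult circles in the same genes, by gene list and by gene length, with Wilson 95% intervals and counts beside each group. The 4 length classes lie between 2.57 and 3.17%, and every interval of a list includes the 3.00% of all genes with a circle.

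Reproducible circles came from every chromosome except Y, and X gave fewer than among single-library circles. Chromosome X held 12 of the 487 (2.46%, Wilson 95% interval 1.42 to 4.26%), against 4.89% (4.57 to 5.24%) of single-library adult circles. By library the X shares were 2.35% against 5.61% in 8w replicate 1, 2.76% against 4.64% in replicate 2 and 2.17% against 5.38% in replicate 3. Chromosome 17 held 28 (5.75%, 4.01 to 8.18%), against 3.64% (3.36 to 3.94%), with 7.33% against 3.57%, 4.14% against 3.72% and 6.16% against 3.47% by library. X and 17 were the chromosomes, of 21, whose intervals did not overlap, and they were singled out after the values were seen. The differences were in the same direction in all 3 libraries, which share members. Chromosome 1 held the most members (45).

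**Figure D5:**
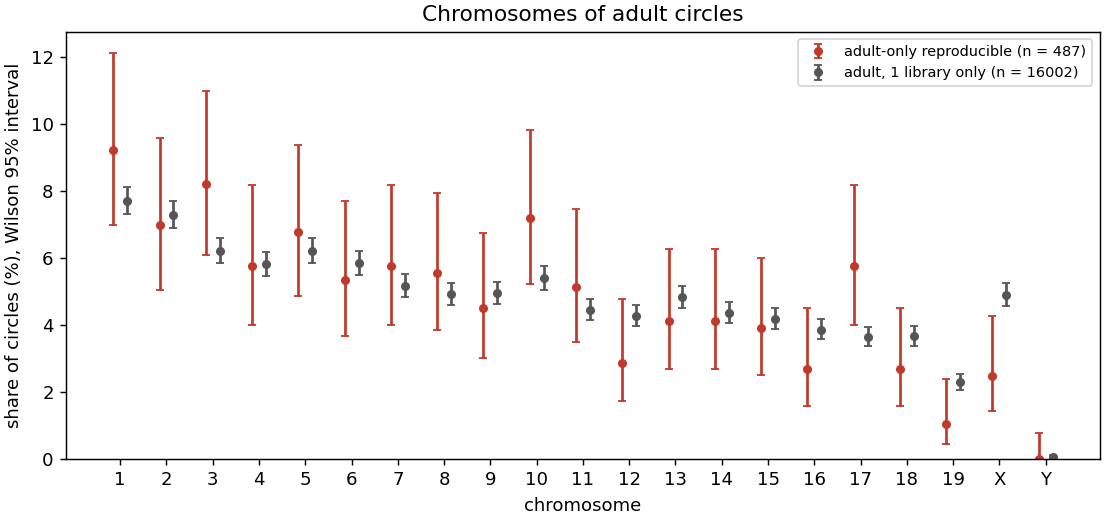
Share of adult circles on each chromosome in percent with Wilson 95% intervals, for the 487 adult-only reproducible circles (red) and the 16002 adult circles of 1 library (grey). On X red lies below grey (2.46 and 4.89%), and on 17 above it (5.75 and 3.64%).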

How the data were processed

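The deposited table holds, per the file headers, raw split-read counts of each circle in each library and circles called by Circle-Map. The submitters' processing notes list BWA 0.7.12, bedtools 2.27.1, cutadapt 1.9.1, edgeR and SAMtools 1.9, with builds GRCm38 and mm10. Version and filters of Circle-Map were not stated. The table has 154938 lines, 1 per pair of circle and protein-coding gene, for 149584 circles. The authors' edgeR-normalized values were not used. Total reads are unknown here.

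Presence meant 1 or more split reads. The rule used these counts, so no count test was made. Length and gene share were tested by exact permutation over libraries, with members found anew in each of 84 groups, and within adult libraries by sign flips. The permutation was tested on simulated data whose libraries were alike in depth and, apart from planted short circles, in length. It was not tested for libraries as unlike in depth and length as these. The threshold was 0.05. Members, the 11 gene lists and tests were chosen with earlier results of these data known. The naming rule took circles of all 3 adult libraries, the 5 with the most reads, the 5 longest and 5 shortest, genes with 2 members and list genes with a member. Some circles that this rule names are not reported here. RefSeq genes and promoter windows are those of GRCm38.p6. Deviations from stage means correlated between -0.01 and 0.02 in 9 same-numbered pairs of libraries and between -0.03 and 0.02 in 18 pairs of different number. Correlations this near to none cannot tell whether replicate numbers pair libraries. Computations used SciPy 1.17.1, statsmodels 0.14.6, pandas 2.3.3 and NumPy 2.4.6 under Python 3.11.15, and plots matplotlib 3.10.9.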

Additional observations from a re-analysis of the deposited data

How the results depend on the processing

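The number of adult-only reproducible circles fell from 487 to 149 with 2 or more reads required for presence and to 43 with 5 or more, an alternative chosen after seeing the data, and ran from 130 to 601 leaving out single libraries, the highest without 3d replicate 1. Their median length stayed below, and their share under 250 bp above, the centre of the permuted groups in all alternatives run. For thinning, that centre was the one of the groups at full depth. Leaving out single libraries, the median ran from 99.5 to 125 bp and the share from 93.8 to 96.9%. Without 8w replicate 1 the median of 104 bp was not the lowest of the permuted groups (exact permutation p = 0.143). With the replicate block, the median of 107 bp and the share of 96.3% had an exact permutation p of 0.0741 (adjusted 0.111). The designs with the replicate block or without an adult library cannot pass the threshold, so their missing it says nothing on stability. Those without an E18 or 3d library could pass after adjustment only if the gene share passed too, and its exact permutation p was 0.107 to 0.357. In these designs both length values had the smallest exact permutation p of 56 groups, 0.0357 (adjusted 0.0536). With 5 or more reads the median was 92 bp and the share 93.0% (exact permutation p adjusted 0.107 and 0.0714). The share in genes was 32.2% with 2 or more reads, passing the threshold, 25.6% with 5 or more (exact permutation p = 0.119), and ran from 37.5 to 43.8% leaving out single libraries, above the centre only without 8w replicate 2 (43.8%). The within-library difference in gene share turned to -4.88 points with 2 or more reads, -9.70 with 5 or more and -0.230 against all circles of 1 adult library, and ran from -0.982 (without 8w replicate 3) to 6.17 points leaving out single libraries. The cause was not tested. Merging ends within 5 or 20 bp gave 487 and 486 circles. A circle could recur only where a library was deep enough to hold a split read of it, and split reads ran from 11377 to 194280 in the adult libraries.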
